A study of Mus musculus with 6 samples.

Results

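The Myc and Max-Mxd network was examined through 10 genes, Myc, Mycn, Max, Mxd1, Mxd3, Mxd4, Mxi1, Mnt, Mlx and Fbxw7, taken by symbol from a table of 23955 symbols. All 10 were present, and all 10 had a mean of at least 1 TPM, the level required for testing, as did 11931 symbols of the table. RNA sequencing was done on haematopoietic stem cells (HSCs) of C57BL/6 mice aged 4 months, either wild type (WT) or db/db. The db/db animals carry 2 copies of db, an inherited leptin receptor mutation present in every tissue, and become obese, and littermates were the controls. HSCs were sorted from c-Kit-enriched marrow as lineage-negative Sca-1+ c-Kit+ cells with CD150 and without CD48, 20000 cells per library. A WT and a db/db library were made in each of 3 experiments, giving n = 3 per group. The labels do not say how many mice gave a library. Levels are in TPM, a transcript abundance that is corrected for length and can be set side by side between genes.

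Myc and Mycn are basic helix-loop-helix leucine zipper factors that bind E-box sequences as dimers with Max and activate genes of ribosome assembly, metabolism and growth. Mxd1, Mxd3, Mxd4, Mxi1 and Mnt also dimerise with Max, occupy the same sequences and recruit the Sin3-HDAC corepressor, so they oppose Myc. Mlx is a second common partner, which joins glucose-responsive Mondo factors as well as some Mxd proteins. Fbxw7 is the substrate-binding subunit of a ubiquitin ligase that marks phosphorylated Myc and Mycn proteins for destruction. In HSCs, Myc and Mycn together sustain proliferation and survival, and Fbxw7 is known to protect quiescence.

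None of the 10 genes passed the test between db/db and WT HSCs. In limma with Benjamini-Hochberg adjustment over all genes, 0 of 10 had an adjusted p under 0.05, against 0.0335% of all genes tested. The count with unadjusted p below 0.05 was also 0 of 10, where 5.35% of all genes had one, 4.1% higher and 1.25% lower in db/db. That split depends on the scale, since after median-of-ratios scaling, which divides each library by the typical ratio of its genes to their means, it was 2.49% higher and 2.98% lower, and the members again gave 0 of 10. Only Myc of the 10 had its db/db level above WT in every experiment and no overlap between the groups, at a ratio of means of 1.24. Only Mxd4 had db/db below WT in every experiment, with a ratio of means of 0.726 and overlapping groups. The median log2 fold change of the 10 genes was 0.20, and that of all genes tested was 0.18.

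The values on the TPM scale carry a shift common to most genes. Of all genes tested, 68.1% had a log2 fold change above 0, and of the 10 members 8 did. After median-of-ratios scaling, the median of all genes fell to 0.00. Then 50.3% of all genes and 5 of 10 members lay above 0. The size factors were 0.914, 0.815 and 1.14 in WT replicates 1, 2 and 3 and 0.915, 1.13 and 1.23 in the db/db replicates. WT replicate 2 had the lowest factor, and 6 of the 10 members (Myc, Mycn, Max, Mxi1, Mlx and Fbxw7) had their lowest value in that library, as did 34.4% of all genes tested.

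The sorted cells carried the transcripts of their gate. Kit was 249 ± 93.8 and 294 ± 63.1 TPM in WT and db/db, Ly6a, which encodes Sca-1, was 384 ± 77.6 and 388 ± 36.4 TPM, and Slamf1, which encodes CD150, was 17.8 ± 6.04 and 31.0 ± 7.17 TPM (SD, n = 3 each). Cd48, which the gate excludes, was between 1.09 and 9.10 TPM in 5 libraries and 21.4 TPM in db/db replicate 2. Both Slamf1 and Cd48 were higher in db/db in all 3 experiments, as were 22.7% of all genes, and Kit and Ly6a in 1 of 3. Groups did not overlap for Slamf1, as for 7.85% of all genes in this direction. Neither Slamf1 nor Cd48 passed (limma adjusted p = 0.919 for each). Lepr was listed at 2.34, 2.93 and 2.79 TPM in WT and at 1.51, 2.44 and 2.04 TPM in db/db libraries. The db mutation acts on splicing, so a total over isoforms is no check of the genotype. In experiments 1, 2 and 3 the 15 granulocyte and monocyte markers summed to 5225, 1112 and 1067 TPM in WT. The db/db libraries had 4634, 2902 and 2205 TPM, so db/db was lower in experiment 1 and higher in experiments 2 and 3. WT replicate 1 was the highest of all. Of the 15 markers, 14 had a log2 fold change above 0, beside 68.1% of all genes. Their median was 1.53, or 1.34 after median-of-ratios scaling. With unadjusted p below 0.05 in limma, 8 markers were higher in db/db, beside 4.1% of all genes. Once scaled, 3 markers were, beside 2.49% of all genes. None passed after Benjamini-Hochberg adjustment. The 10 erythroid markers summed to between 95.8 and 204 TPM in WT and between 321 and 1406 TPM in db/db libraries. Of 12 lymphoid markers, 7 were at 0 in all 6 libraries (Cd3e, Cd3g, Ms4a1, Il7r, Rag1, Gzma and Ncr1), and the summed level ran from 83.5 to 158 TPM across WT and from 153 to 248 TPM across db/db libraries. Most of that sum was Nkg7, at 69.8, 115 and 50.7 TPM in WT and 187, 200 and 125 TPM in db/db libraries, and Cd79b, which was lower in db/db in each experiment (log2 fold change -0.11); both are named after their values were seen. In WT and db/db libraries, megakaryocyte markers summed to 411 to 671 and 516 to 801 TPM, and macrophage markers to 24.7 to 80.3 and 42.0 to 106 TPM. The part of such cells in the levels below was not tested, and in bulk samples a change in the number of cells of a type cannot be told apart from a change in RNA per cell.

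The network was dominated by its shared partner and its activators. Max was the most abundant member at 322 TPM over the 6 libraries (SD 84.7, n = 6), rank 327 of the tested genes by mean level. Myc followed at 173 TPM (SD 25.8, rank 610) and Mycn at 83.8 TPM (SD 36.9, rank 1363). In each of the 6 libraries Max was above Myc, Myc was above Mycn and Mycn was above Mnt, so these neighbours kept their order. The next 5 members lay close together, Mnt at 23.1 TPM (SD 3.61), Mlx at 20.7 TPM (SD 7.21), Mxd4 at 18.9 TPM (SD 9.79), Mxi1 at 18.6 TPM (SD 4.48) and Mxd1 at 15.1 TPM (SD 4.26). The first 4 of these were above the next in only 3 or 4 of 6 libraries, so their order did not exceed the spread between libraries. Fbxw7 at 9.24 TPM (SD 3.08) was below Mxd1 in all 6 libraries, and Mxd3 at 4.93 TPM (SD 3.12) was the lowest member, below Fbxw7 in 4 of 6.

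**Figure D1:**
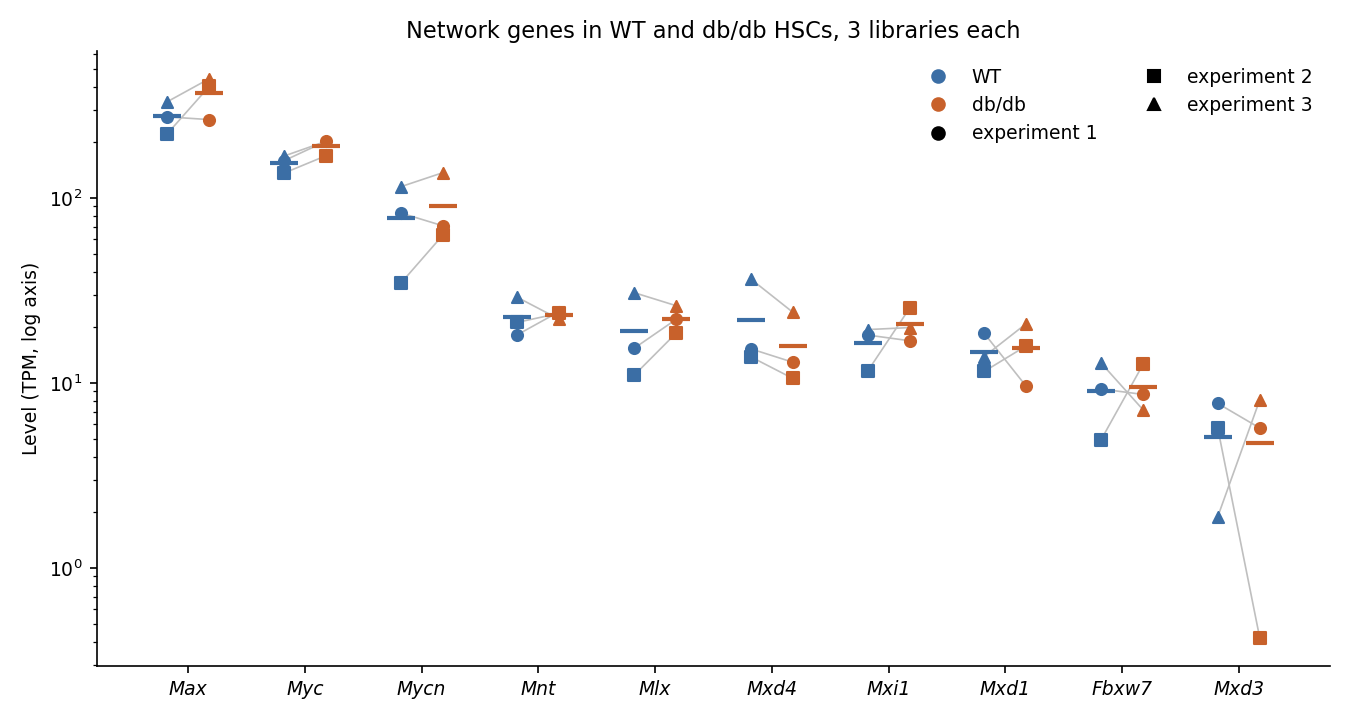
Level of the 10 network genes in each library in TPM on a log axis, ordered by mean level. Blue marks WT and orange db/db, symbols mark the experiment, grey lines join libraries of an experiment and bars are group means (n = 3). Max, Myc and Mycn lie above the other 7 genes, and Myc is the gene whose WT and db/db points do not overlap.

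Myc, the growth-promoting activator, was 159, 136 and 168 TPM in the WT libraries of experiments 1, 2 and 3, beside 203, 169 and 202 TPM in their db/db counterparts. Every db/db library was above every WT library, although the lowest db/db value (169.06 TPM) and the highest WT value (168.29 TPM) nearly met. Groups were separated in this direction for 7.85% of all genes tested, and 22.7% of all genes were higher in db/db in all 3 experiments. Means were 154 ± 16.5 TPM for WT and 191 ± 19.2 TPM for db/db (SD, n = 3 each). The log2 fold change on log2(TPM + 1) was 0.31 (SE 0.25, limma adjusted p = 0.920, unadjusted p = 0.223), with a 95% interval from -0.20 to 0.82. By an exact two-sided permutation test p was 0.1, the smallest value that 3 against 3 libraries allow. Differences within the experiments were 0.35, 0.31 and 0.26, the narrowest range of any member. After median-of-ratios scaling the groups overlapped, the difference was 0.11 (limma adjusted p = 0.973), and experiment 2 went the other way at -0.16. The coefficient of variation of Myc was 10.7% in WT and 10.1% in db/db.

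Mycn, the N-myc paralogue that acts beside Myc in stem cells, was 83.0, 34.5 and 115 TPM in WT and 70.7, 62.8 and 137 TPM in db/db libraries. Groups overlapped almost wholly, and WT replicate 2 was the lowest library and db/db replicate 3 the highest. The means were 77.5 ± 40.5 and 90.1 ± 40.6 TPM, differing by 0.29 on the log2 scale (SE 0.38, limma adjusted p = 0.929). Within experiments the differences were -0.23, 0.85 and 0.25, and the estimate was -0.20 without WT replicate 2. The experiments kept the same order in both genotypes for Mycn, Mxd4 and Mlx, 3 of the 10 members, against 19.8% of all genes tested. Their shared order, experiment 3 highest and experiment 2 lowest, was picked after their values were seen. It held for 6.13% of all genes tested. Mycn made up 34.3%, 20.2% and 40.6% of the summed level of Myc and Mycn in the WT libraries, beside 25.9%, 27.1% and 40.3% in db/db.

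Max, the partner that Myc and its antagonists compete for, was 274, 222 and 331 TPM in WT and 265, 401 and 441 TPM in db/db libraries. In experiment 1 the levels were close and slightly lower in db/db, while in experiments 2 and 3 db/db was higher. The means were 276 ± 54.4 and 369 ± 92.1 TPM, and the difference of 0.40 (SE 0.25, limma adjusted p = 0.919) was the highest estimate among the 10 genes. Within experiments the differences were -0.05, 0.85 and 0.41. By an exact two-sided permutation test p was 0.3. The estimate was 0.21 after median-of-ratios scaling, and it was 0.62 without db/db replicate 1 and 0.26 without WT replicate 2 or db/db replicate 3. In none of these did Max pass (adjusted p between 0.321 and 0.9999 over all 18 alternatives).

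Among the antagonists, Mxd4 was 15.3, 13.8 and 36.5 TPM in WT and 12.9, 10.6 and 24.1 TPM in db/db libraries. Each db/db library was below the WT library of its experiment, by -0.22, -0.36 and -0.58 on the log2 scale, and 7.55% of all genes tested were lower in all 3 experiments. The 2 libraries of experiment 3 were the highest of the 6, so the groups overlapped. The log2 fold change was -0.39 (SE 0.42, limma adjusted p = 0.925), and -0.57 after median-of-ratios scaling (limma adjusted p = 0.919). It rested on WT replicate 3, without which it was 0.04.

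Mxd1, an antagonist known from differentiating myeloid cells, was 18.5, 11.6 and 13.9 TPM in WT and 9.58, 15.9 and 20.9 TPM in db/db libraries. It was lower in db/db in experiment 1 and higher in experiments 2 and 3, and its log2 fold change was 0.03 (SE 0.40, limma adjusted p = 0.995). Mxi1 was 18.2, 11.6 and 19.4 TPM in WT and 16.9, 25.3 and 19.9 TPM in db/db libraries. Its difference of 0.34 (SE 0.37, limma adjusted p = 0.925) came mainly from experiment 2, at 1.07 against -0.10 and 0.03 in experiments 1 and 3. Mnt, a broadly expressed antagonist, was 18.2, 21.3 and 29.0 TPM in WT and 24.3, 23.8 and 22.1 TPM in db/db libraries. Its means of 22.8 ± 5.56 and 23.4 ± 1.18 TPM were nearly equal, with a log2 fold change of 0.06 (SE 0.34, 95% interval -0.66 to 0.77). Mxd3, the antagonist associated with S phase, was 7.76, 5.72 and 1.89 TPM in WT and 5.71, 0.42 and 8.09 TPM in db/db libraries. Its differences within experiments, -0.38, -2.24 and 1.65, had opposite signs, and the log2 fold change was -0.32 (SE 0.63, limma adjusted p = 0.945).

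Mlx was 15.4, 11.0 and 30.8 TPM in WT and 22.1, 18.6 and 26.2 TPM in db/db libraries, and the groups differed by 0.32 (SE 0.39, limma adjusted p = 0.926). Levels were higher in db/db in experiments 1 and 2 and lower in experiment 3. Fbxw7, the ligase subunit, was 9.28, 4.92 and 12.8 TPM in WT and 8.67, 12.6 and 7.17 TPM in db/db libraries. Experiment 2 had a difference of 1.20 and experiment 3 one of -0.76, so the log2 fold change was 0.12 (SE 0.45, limma adjusted p = 0.977). TPM of Myc per TPM of Fbxw7 was 19.3 ± 7.52 in WT and 21.7 ± 7.54 in db/db HSCs (SD, n = 3 each).

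**Figure D2:**
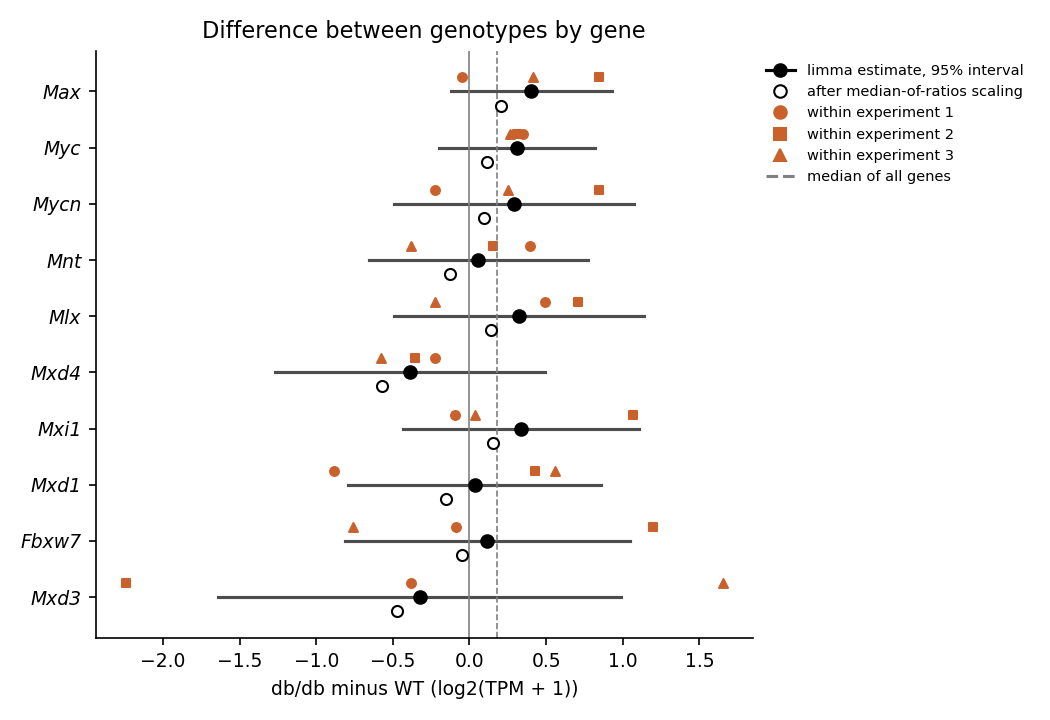
Difference between db/db and WT for each network gene on log2(TPM + 1). Black points and lines are limma estimates with 95% intervals, open points the estimates after median-of-ratios scaling, orange symbols the differences within experiments, and the dashed line the median of all genes (0.18). All 10 intervals include 0, and the 3 experiments lie closest together for Myc.

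The balance of antagonists to activators was read as the summed TPM of Mxd1, Mxd3, Mxd4, Mxi1 and Mnt over that of Myc and Mycn. A ratio within a library does not change with the scaling of that library. The WT libraries had ratios of 0.322, 0.375 and 0.356, the db/db libraries 0.254, 0.328 and 0.280. In each of the 3 experiments db/db was lower, and the groups overlapped, since db/db replicate 2 was above WT replicate 1. The means were 0.351 ± 0.0264 in WT and 0.288 ± 0.0373 in db/db HSCs (SD, n = 3 each). No test is given, because the genes in the sums were chosen. The summed antagonists were 80.9 ± 18.6 and 80.2 ± 13.3 TPM, and the summed activators 232 ± 56.9 and 281 ± 54.1 TPM. Without Mxd4 the ratio was 0.260 ± 0.0334 and 0.233 ± 0.0428, and still lower in db/db in 3 of 3 experiments. Mxd4 supplied 19.6%, 21.6% and 36.2% of the antagonist sum in WT libraries and 18.6%, 13.9% and 25.3% in db/db libraries. The sum of Myc and Mycn over Max took values of 0.882, 0.768 and 0.856 for WT and 1.03, 0.579 and 0.769 for db/db libraries, higher in db/db in experiment 1 and lower in experiments 2 and 3.

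**Figure D3:**
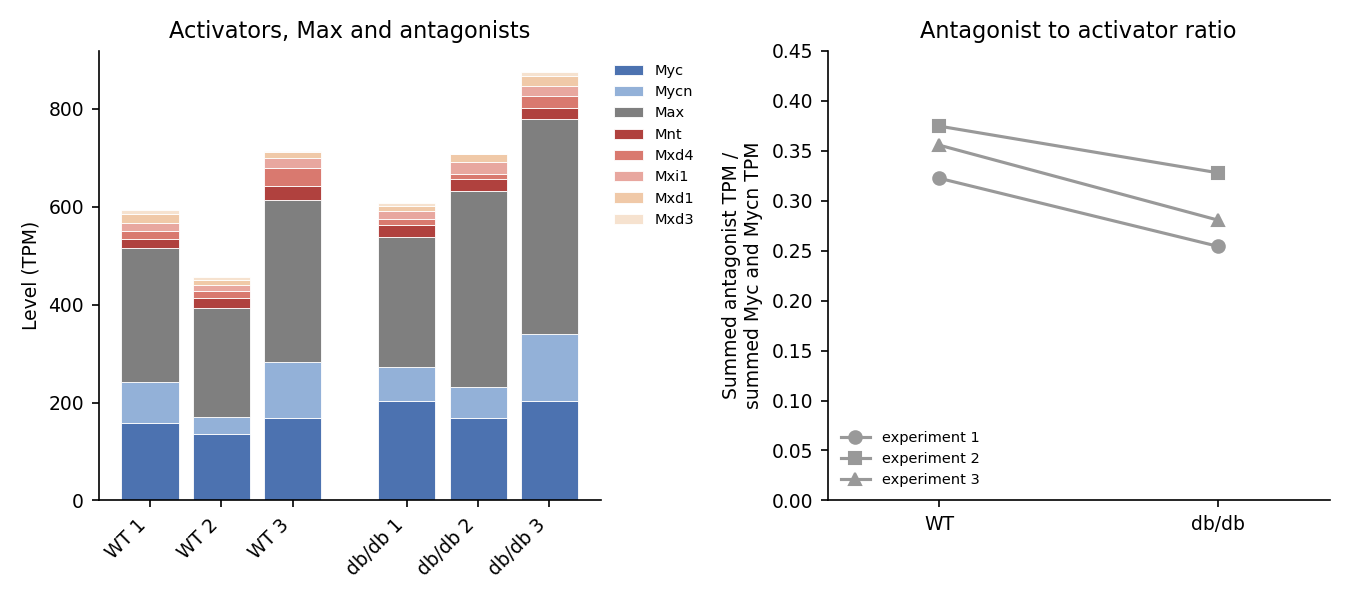
Left, stacked levels of Myc, Mycn, Max and the 5 antagonists in TPM for each library. Right, the ratio of summed antagonists to Myc plus Mycn, with lines joining the WT and db/db library of an experiment (n = 3 per group). The ratio runs from 0.322 to 0.375 in WT and from 0.254 to 0.328 in db/db, and each of the 3 lines slopes down.

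The sequence that Myc, Mnt and Mxd dimers with Max bind best is the E-box CACGTG, which reads the same on both strands. RefSeq promoter windows of build GRCm38.p6, 250 bases before to 50 bases after each listed start, were searched for it. They were matched by symbol for 9 of the 10 genes, the exception being Myc. The motif was found for Max, Mxd4, Mnt and Mlx, and it was not in the windows of Mycn, Mxd1, Mxd3, Mxi1 or Fbxw7. Of all 32851 windows, 7.15% held it, and of the tested genes with a window 11.9% had it in at least 1. The sites are shown because they lie in genes of the network itself, with 12 bases on either side, 5′ to 3′ on the strand of the gene and the E-box in capitals:
Max, chr12:76962234-76962263, minus strand: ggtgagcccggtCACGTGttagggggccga
Mxd4, chr5:34187912-34187941, minus strand: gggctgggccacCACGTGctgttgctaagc
Mnt, chr11:74830789-74830818, plus strand: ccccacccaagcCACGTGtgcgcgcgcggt
Mlx, chr11:101087238-101087267, plus strand: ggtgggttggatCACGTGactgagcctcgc
The first base of the motif lay 219 bases before the start in Mxd4, 123 in Mnt, 40 in Mlx and 3 in Max, where the motif spans the start. The 4 genes with a site had log2 fold changes of 0.40 (Max), -0.39 (Mxd4), 0.06 (Mnt) and 0.32 (Mlx), so they did not share a direction. Over all tested genes the median log2 fold change was 0.16 for the 1141 with the motif and 0.18 for the 8413 without it.

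Related genes were read from 7 lists fixed by name, on other network factors, Myc turnover, activation cofactors, the Sin3-HDAC corepressor, genes induced by Myc, genes repressed by Myc and targets of the Mondo-Mlx dimer. Of their 122 tested genes, 0 passed in limma with adjustment over all genes. With unadjusted p below 0.05 there were 3 higher and 2 lower, beside 4.1% and 1.25% of all genes. After median-of-ratios scaling there were 2 higher and 5 lower, beside 2.49% and 2.98% of all genes. Groups did not overlap for 7 that were higher and 3 that were lower in db/db, beside 7.85% and 2.32% of all genes, or 10.2% in either direction. The median log2 fold change of the 122 genes was 0.17, close to the 0.18 of all genes.

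Other network factors were few. Mycl was listed at 0 in all 6 libraries, and Mlxipl, which encodes ChREBP, was at or below 0.20 TPM. Mlxip, which encodes the glucose-responsive Mlx partner MondoA, was 30.7, 20.5 and 45.6 TPM in WT and 35.7, 38.4 and 56.5 TPM in db/db libraries (log2 fold change 0.46, SE 0.35, limma adjusted p = 0.920). Each experiment had db/db above WT, and the groups overlapped. Mga, a large Max partner with a repressive role, was 12.8 ± 3.18 and 16.4 ± 5.81 TPM, and Zbtb17, which encodes Miz1, a factor through which Myc represses genes, was 9.71 ± 5.96 and 6.19 ± 4.03 TPM (SD, n = 3 each).

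Of 16 genes of Myc turnover, 1, Gsk3a, had an unadjusted p under 0.05, beside 5.35% of all genes. After median-of-ratios scaling 0 of the 16 had one. Gsk3a encodes a kinase of the family that phosphorylates Myc ahead of Fbxw7 binding. It was 38.7, 44.3 and 60.4 TPM in WT and 95.6, 65.2 and 64.3 TPM in db/db libraries. Its groups did not overlap, as for 7.85% of all genes in this direction. Its log2 fold change was 0.64 (SE 0.30, limma adjusted p = 0.919), 0.45 after median-of-ratios scaling, and the differences within experiments were 1.29, 0.55 and 0.09. Huwe1, another ubiquitin ligase of Myc, was 37.6 ± 3.26 and 54.6 ± 15.2 TPM. Skp1a, a core subunit of the ligase that Fbxw7 belongs to, was the most abundant at 400 ± 118 and 521 ± 127 TPM (SD, n = 3 each). The list median of 0.18 equalled that of all genes.

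Of 15 activation cofactors, 0 had an unadjusted p under 0.05. Above 0 lay 13 of 15, beside 68.1% of all genes, and 8 of 15 after median-of-ratios scaling, beside 50.3%. The paired ATPases Ruvbl1 and Ruvbl2, which Myc binds, had opposite signs, Ruvbl1 at WT and db/db means of 108 and 149 TPM and Ruvbl2 at 182 and 156 TPM. Neither passed (limma adjusted p = 0.919 and 0.925). Of 17 Sin3-HDAC genes, 0 had an unadjusted p under 0.05, and 1, Suds3, was lower with such a p after median-of-ratios scaling and is named after its value was seen. Brms1 was 19.6 ± 3.77 and 33.2 ± 12.9 TPM, and Rbbp7, a histone-binding subunit, was 136 ± 55.4 and 186 ± 37.3 TPM (SD, n = 3 each). Hdac1, a catalytic subunit and the most abundant, was 190 ± 30.6 and 207 ± 51.7 TPM (SD, n = 3 each). Median log2 fold changes were 0.20 for both lists, beside 0.18 for all genes.

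Genes known to be induced by Myc gave few differences. Of 56 tested, unadjusted p was below 0.05 for 0 higher genes and 1 lower gene, Nme2, beside 4.1% and 1.25% of all genes. Above the median of all genes lay 20 of the 56. After median-of-ratios scaling 0 genes were higher and 3 lower with such a p, beside 2.49% and 2.98% of all genes. The 3 were Odc1, Nme2 and Dkc1, with Odc1 at the smallest unadjusted p (limma, 0.00994). Odc1 and Dkc1 are named after their scaled values were seen. The list median was 0.09, and -0.10 once scaled by median of ratios, where all genes had 0.00. Nme2, a nucleoside diphosphate kinase gene, was 375, 490 and 256 TPM in WT and 329, 189 and 205 TPM in db/db libraries, lower in all 3 experiments (log2 fold change -0.63, SE 0.27, limma adjusted p = 0.899). Nme1 is a close copy of Nme2, so reads may have been divided between them. Nme1 was 108 ± 35.4 and 81.8 ± 19.9 TPM (SD, n = 3 each). Prdx3, a mitochondrial peroxidase gene, was 65.7 ± 15.3 and 98.9 ± 30.0 TPM, and Ptma, the prothymosin gene, was the most abundant at 1210 ± 346 and 1487 ± 393 TPM (SD, n = 3 each).

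Other members of the induced list were picked after their values were seen. Groups did not overlap for Cdk4 and Farsa, which were higher in db/db, or for Fbl, which was lower. These were 2 and 1 of the 56 genes, beside 7.85% and 2.32% of all genes tested. Cdk4, a G1 kinase, was 419, 423 and 499 TPM in WT and 543, 620 and 552 TPM in db/db libraries. Fbl, the nucleolar methyltransferase fibrillarin, was 307, 353 and 337 TPM in WT and 293, 269 and 276 TPM in db/db libraries. Odc1, the ornithine decarboxylase gene, was 162, 184 and 207 TPM in WT and 106, 146 and 164 TPM in db/db libraries, lower in each experiment with overlapping groups. None of the 4 passed (limma adjusted p = 0.919 for Cdk4 and Odc1 and 0.920 for Farsa and Fbl). Of the 49 induced genes with a promoter window, 16 (32.7%) held the E-box, and their median log2 fold change was 0.12, against 0.09 for the 33 without it.

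Of 9 tested genes on the list repressed by Myc, unadjusted p was below 0.05 for 1 higher and 1 lower gene, beside 4.1% and 1.25% of all genes. The list median was 0.36, and 0.17 after median-of-ratios scaling, beside 0.18 and 0.00 for all genes. Thbs1, which encodes the secreted platelet protein thrombospondin, was 6.82, 8.14 and 4.03 TPM in WT and 1.38, 0.56 and 1.26 TPM in db/db libraries. Every db/db library was below every WT library for Thbs1. Groups were separated for 2 higher genes, Itgal and Ndrg2, and 1 lower gene of the 9, beside 7.85% and 2.32% of all genes. Itgal and Ndrg2 are named after their values were seen. The difference for Thbs1 was -1.81 (SE 0.53, limma adjusted p = 0.530). Gadd45a, a stress-induced growth arrest gene, was 6.61, 1.16 and 2.63 TPM in WT and 6.52, 7.65 and 11.2 TPM in db/db libraries. It did not differ in experiment 1 (-0.02) and was higher in experiments 2 and 3 (2.002 and 1.75), for a difference of 1.25 overall (SE 0.52, limma adjusted p = 0.899). Ndrg1 was 111 ± 20.2 and 143 ± 24.5 TPM (SD, n = 3 each). Cdkn2b was listed at 0 in all 6 libraries, and Cdh2 at no more than 0.16 TPM.

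On the Mlx side, Arrdc4, an arrestin-like glucose-uptake regulator that MondoA and Mlx induce, was 23.9, 12.6 and 40.6 TPM in WT and 52.6, 46.1 and 60.0 TPM in db/db libraries. Every db/db library was above every WT library, and the log2 fold change was 1.15 (SE 0.37, limma adjusted p = 0.607, unadjusted p = 0.00514). The difference was 0.96 after median-of-ratios scaling and 1.11, 1.79 and 0.55 within experiments. Txnip, its paralogue and the best-known target of the dimer, was 504, 277 and 949 TPM in WT and 704, 670 and 935 TPM in db/db libraries (log2 fold change 0.58, SE 0.31, limma adjusted p = 0.919). It was higher in db/db in experiments 1 and 2 and level in experiment 3, at -0.02. Klf10 was 51.5, 33.8 and 103 TPM in WT and 78.5, 93.8 and 104 TPM in db/db libraries. Among the WT libraries, replicate 3 was the highest for Mlx, Arrdc4, Txnip and Klf10, which are set together after their values were seen. It was not the highest for Pklr, Acaca or Fasn. That library also had the highest size factor of the WT libraries, 1.14. No share of all genes was computed for the WT libraries alone. WT replicate 3 was the highest of all 6 libraries for Mlx and Txnip, as for 19.9% of all genes tested. Pklr, a pyruvate kinase gene on the same list, had the opposite sign at 1.66 ± 0.765 and 0.663 ± 0.257 TPM. Every db/db library was below every WT library for Pklr (log2 fold change -0.65, SE 0.60, limma adjusted p = 0.920). Groups were thus separated for 1 higher and 1 lower gene of the 6 on the list, beside 7.85% and 2.32% of all genes. The lipogenic genes Acaca and Fasn had log2 fold changes of -0.06 and 0.01.

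**Figure D4:**
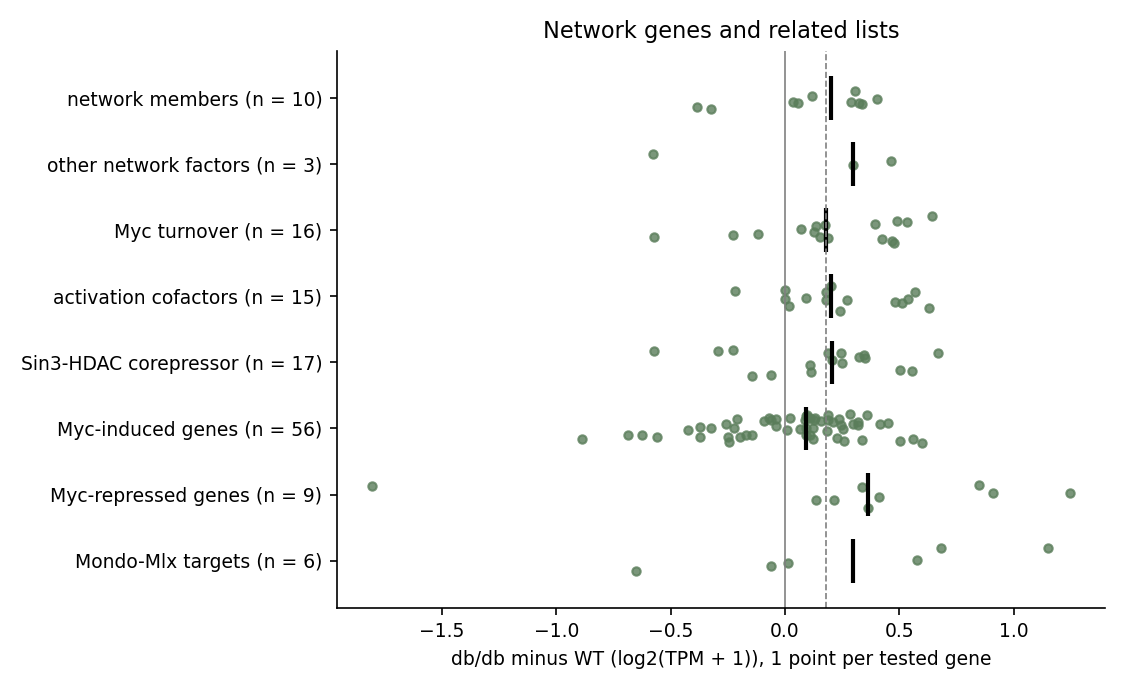
Difference between db/db and WT on log2(TPM + 1) for each tested gene of the network and of the 7 related lists, with the list median as a bar. The dashed line is the median of all genes (0.18). Medians run from 0.09 for genes induced by Myc to 0.36 for genes repressed by Myc, and the lowest point is Thbs1.

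Cell division markers were read beside the network because Myc and Mxd3 move with proliferation in many cells. The 12 markers summed to between 877 and 1051 TPM in WT and between 992 and 1392 TPM in db/db libraries. Pcna, named after its values were seen, was the largest part of each sum. It was 420, 483 and 609 TPM in WT and 571, 643 and 822 TPM in db/db libraries. Of the 12 markers 9 had a log2 fold change above 0, beside 68.1% of all genes, and 0 had an unadjusted p under 0.05. After median-of-ratios scaling 9 of 12 were above 0, beside 50.3% of all genes, and again 0 had such a p. Groups did not overlap for 1 higher and 0 lower markers, beside 7.85% and 2.32% of all genes. Mki67 was 13.5, 26.1 and 9.75 TPM in WT and 10.2, 30.4 and 22.3 TPM in db/db libraries.

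The genes most like Myc over the 6 libraries were Tcf3, which encodes the E proteins E12 and E47, Ercc5, a DNA repair nuclease, and Rara, a retinoic acid receptor, with Pearson r of 0.995, 0.989 and 0.989 on log2(TPM + 1). Those most like Mycn were Fbxl5, Tmem164 and Tbc1d19, with r of 0.997, 0.996 and 0.994. These are the highest of 11931 genes over 6 libraries that share scaling and experiment, and 164 genes exceeded 0.9 with Myc and 425 with Mycn, so the values are a description.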

How the data were processed

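The deposited table gave 1 TPM value per gene symbol and library, and the submitters' processing notes name RSEM, Bowtie2 and mm9 as what the authors used. Their versions, settings and gene annotation are not given in the sources used here. Each column summed to 1000000, so sequencing depth is unknown and no counting error could be given. The labels call the replicates independent experiments without naming the mice, so p-values measure only the spread between these libraries.

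The 11931 genes averaging 1 TPM or more were tested on log2(TPM + 1) by limma 3.58.1 (R 4.3.3), genotype the only term, trended empirical Bayes, two-sided, Benjamini-Hochberg adjustment, threshold 0.05. The model was checked on simulated data. Promoter windows were matched by current or older symbol for 80.1% of tested genes. The pseudocount of 1 understates changes of low genes. Exact permutation tests used single genes. Libraries are paired by the experiment in the labels. Deviations from group means correlated at 0.04, 0.01 and 0.16 within experiments. All 10 members were named, and from each related list the 2 genes of smallest p and the most abundant, with exceptions stated, and 1 gene chosen by this rule is not reported here. Members and lists were chosen with earlier results of these data known. Alternatives are in the closing section.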

Additional observations from a re-analysis of the deposited data

How the results depend on the processing

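Results were recomputed with pseudocounts of 0.1 and 0.5, other filters, scalings and limma settings, the experiment as a replicate block, and each library left out. The block combined with median-of-ratios scaling was added after seeing the data. In all of them 0 of the 10 members and 0 genes of each related list passed, and the replicate block changed no call among them (adjusted p 0.741 for Myc, 0.803 for Mycn and 0.708 for Max). Myc, Max, Mxi1 and Mlx kept a positive sign in all 18 alternatives, Myc between 0.11 and 0.39. Signs turned after median-of-ratios scaling (with or without the block) and quantile normalization for Mxd1 (-0.15 and -0.17), Mnt (-0.13 and -0.13) and Fbxw7 (-0.050 and -0.072), and with array weights for Mxd1 (-0.0027). These 2 scalings move the median of all genes to 0.00 and 0.01. With 1 library left out, estimates ran from -0.20 to 0.65 for Mycn, -0.20 to 0.32 for Mxd1, -0.84 to 0.50 for Mxd3, -0.71 to 0.036 for Mxd4, -0.084 to 0.24 for Mnt and -0.22 to 0.39 for Fbxw7. Mxd3 could not be fitted at a mean of at least 5 TPM, being below it.

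Over all genes 4 passed. The limma count was 0 without a filter (748 genes at an unadjusted p under 0.05) and without the trend (605), 1 after median-of-ratios scaling, quantile normalization or with a robust prior, 16 with array weights, 7 at an adjusted p under 0.1, and 4 to 18 with 1 library left out (18 without WT replicate 1, and 10 and 7 when the third or the first db/db library was omitted). The antagonist ratio was 0.250 in WT and 0.202 in db/db without Mnt, 0.260 and 0.233 without Mxd4, and 0.520 and 0.421 over Myc alone. Depth is unknown, so the counting error of low genes such as Mxd3 could not be given.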
